A study of Mus musculus with 27 samples.

Results

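The cytosolic ribosomal protein genes were followed in the ileum, cecum and colon of mice given plain or arsenic-laced feed. They were taken as the protein-coding mouse genes with an Rpl or Rps symbol followed by a number and at most one letter a, l or x, together with Rplp0, Rplp1, Rplp2 and Rpsa. Pseudogenes and the Rps6k kinases were left out. Of 52550 genes counted, 80 met this rule, 49 of the large and 31 of the small subunit. A further 3 genes with a matching symbol, Rps4l, Rpl6l and Rpl32l, were not annotated as protein coding and were left out too. All were male C57BL/6 mice, 6 weeks old at the start and given 7 days to acclimatize, with 10 mice on each diet for 60 days. The control diet was standard feed. The arsenic diet was the same feed with 30 ug of total arsenic per g, made of 72.7% sodium arsenite, 19.0% sodium DMA, 7.3% sodium arsenate and 1.0% sodium MMA. Poly-A RNA was sequenced from 13 control libraries (ileum 1, 2, 3 and 5, cecum 1, 2, 4 and 5, colon 1 to 5) and 14 arsenic libraries (ileum and cecum 11 to 15, colon 11, 12, 13 and 15).

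The ribosome is built from ribosomal RNA and a fixed set of proteins, most of them needed once in every small or large subunit, and their mRNAs are among the most abundant in dividing and secreting cells such as those of the gut lining. Most of these mRNAs begin with a C followed by a run of pyrimidines, the TOP element, through which mTORC1 and the RNA-binding protein Larp1 control their translation and stability. Surplus Rpl5, Rpl11 and some other ribosomal proteins can bind Mdm2 and so raise p53.

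The starts of the members on which the comparisons turn are shown because the TOP element lies there. Each line gives 40 bases, 25 before and 15 from the annotated start on, read 5′ to 3′ from the RefSeq promoter table on GRCm38.p6. Capitals mark a C within 5 bases of the start that is directly followed by at least 5 bases that are each C or T. The first 5 genes are among those that rose in the ileum, and the next 4 led the rise in the cecum. The last 2 stood apart between the regions. Rpl8 and Rps27a are named only.
Rplp2 (chr7:141447626-141447665, plus strand): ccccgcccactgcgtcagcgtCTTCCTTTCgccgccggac
Rpl28 (chr7:4792940-4792979, plus strand): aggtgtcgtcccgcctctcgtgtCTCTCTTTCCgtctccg
Rps2 (chr17:24720038-24720077, plus strand): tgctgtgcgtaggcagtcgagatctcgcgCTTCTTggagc
Rps9 (chr7:3704016-3704055, plus strand): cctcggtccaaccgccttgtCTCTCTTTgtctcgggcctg
Rps13 (chr7:116334176-116334215, minus strand): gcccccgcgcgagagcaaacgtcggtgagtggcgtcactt
Rps7 (chr12:28635939-28635978, minus strand): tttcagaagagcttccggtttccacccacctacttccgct
Rpl35 (chr2:39005117-39005156, minus strand): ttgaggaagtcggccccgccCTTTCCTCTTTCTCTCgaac
Rpl36a (chrX:134585629-134585668, plus strand): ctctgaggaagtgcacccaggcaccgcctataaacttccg
Rpl26 (chr11:68901541-68901580, plus strand): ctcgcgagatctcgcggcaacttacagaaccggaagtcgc
Rpl7a (chr2:26910782-26910821, plus strand): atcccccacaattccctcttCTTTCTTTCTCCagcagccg
Rpsa (chr9:120127741-120127780, plus strand): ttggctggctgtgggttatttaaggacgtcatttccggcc
Rplp2, Rpl28, Rps2 and Rps9 of the ileum set and Rpl35 of the cecum set carried such a run, and Rps13, Rps7, Rpl36a and Rpl26 held none within 5 bases of this start. Windows of 300 bases, 250 before the start and 50 from it on, were found for 60 members, 72 windows in all. The run was present in 26 of 72 (36.1%), against 10.2% of the 32851 windows of all genes. CTTCCG, the core of an ETS factor site, was present on either strand in 61.1% of member windows and 16.9% of all, and AAGATGGC, the core of a YY1 site, in 9.72% and 2.75%. These matches describe letters in a window and do not show that a factor binds.

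The libraries held 15717600 to 18208518 counts, and within-group Pearson correlations of log2 CPM (counts scaled to library size) were 0.979 to 0.997. Colon control 1 stood apart from the other colon controls in ribosomal protein genes, so the counts of members called in comparisons with the colon controls are given with and without it. Differences of single genes are given with it. In the ileum, arsenic libraries 14 and 15 held 6.13 and 1.33 CPM of Fabp6, which carries bile acids inside ileal enterocytes, against 218 to 4268 CPM in the other ileum libraries. Levels below are CPM on library sizes scaled by TMM over all 27 libraries. Whether groups overlap was judged on these levels, while each fit took TMM factors from its own libraries. Differences between groups are log2 values with their standard error (SE) from edgeR's quasi-likelihood test. A gene was called where its p, adjusted over all genes tested by the method of Benjamini and Hochberg, was under 0.05. The labels do not say that each library came from its own mouse, so p-values measure the spread between these libraries. Mt1, a metallothionein that responds to metals, was higher on arsenic in the ileum and the cecum, by 2.05 ± 0.24 and 1.71 ± 0.11 (log2 ± SE, adjusted p = 0.00357 and 8.41e-07). In the colon its difference was 1.37 ± 0.40 and it was not called (adjusted p = 0.166).

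Of the 80 members, 76 had enough counts to be tested in every comparison. Levels per kilobase of exon were highest for Rplp1, a protein of the acidic stalk that recruits translation factors, at 1247 CPM per kilobase over the 27 libraries. Rplp0, the base of that stalk, followed at 746 and Rps15 at 615. These lengths are unions of all annotated exons and so understate genes with retained introns among their transcripts. At the other end, the paralogs Rpl10l, Rpl3l and Rpl39l held 1, 44 and 25 counts over all 27 libraries. Rpl10l had no count in 26 libraries, and a count of 0 there allows up to 0.165 to 0.191 CPM (3 counts of the library, covering counting error only). Rpl24 held only 113 counts over the 27 libraries and was the fourth member that was not tested. Rpl13a, Rpl23a and Rpl35 were low as well, at 4.39, 11.8 and 17.7 CPM on average. Gm45713, another coding gene, overlaps Rpl13a on the same strand. How reads that fit several places or overlapping genes were counted is not given in the sources used here. The low counts of Rpl24 and of these 3 genes may therefore not give their mRNA levels, which was not tested. Counts of genes with near-identical processed copies are uncertain. The table holds 285 rows of ribosomal protein pseudogenes, which took 2.47 to 2.76 counts per 100 counts of the members.

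The members together took 3.14, 3.19, 3.10 and 2.97% of the counts in the 4 ileum controls and 3.92, 3.14, 3.72, 4.02 and 2.45% in the 5 ileum arsenic libraries. In the cecum the share was 2.14, 2.02, 2.07 and 2.15% in the controls and 2.50, 2.42, 2.71, 2.57 and 2.48% on arsenic. In the colon it was 3.13, 2.26, 2.08, 2.35 and 2.12% in the controls and 2.35, 2.48, 2.55 and 2.49% on arsenic. The cecum groups did not overlap, whereas the ileum arsenic libraries lay on both sides of the controls and colon control 1 lay above the other 8 colon libraries.

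**Figure D1:**
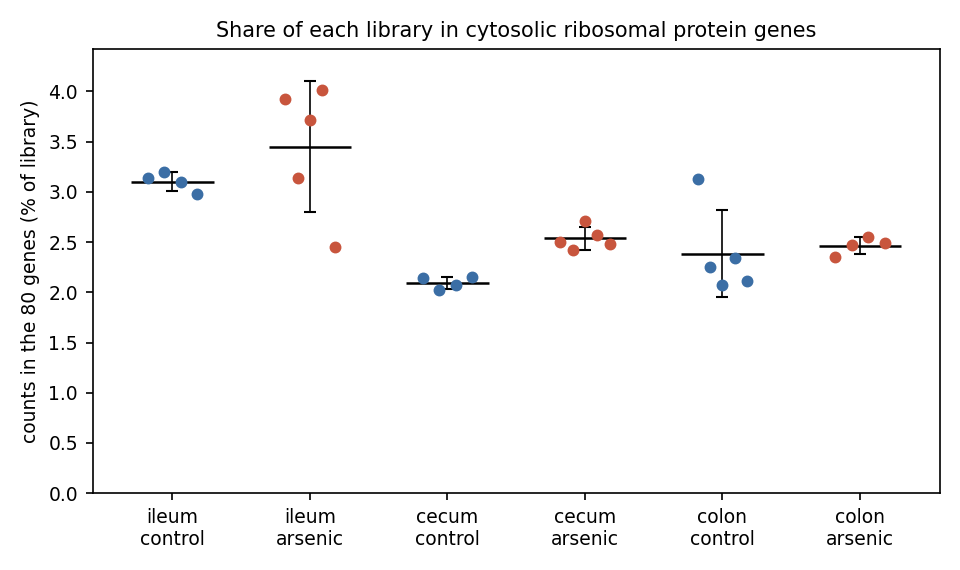
Percent of each library's counts (vertical axis, from 0) that fell in the 80 cytosolic ribosomal protein genes, by region and diet (blue control, red arsenic). The shares are not scaled by TMM. Each point is 1 library, lines are group means and bars are 1 SD; the cecum arsenic libraries lie between 2.42 and 2.71%, all above the cecum controls.

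In the cecum, ribosomal protein mRNAs were higher on arsenic across both subunits: 49 of the 76 members rose, none fell and 27 were not called. Over all 15590 genes tested, 11.3% were called higher and 13.9% lower. The median member differed by 0.23 (log2, 1.17-fold), against 0.02 for all genes, and the members lay between -0.09 and 0.42. The rise took in 28 of 45 large subunit and 21 of 31 small subunit members, with medians of 0.24 and 0.22. The 2 groups did not overlap for 39 members, 38 of them higher on arsenic (7.24% of all genes) and 1, Rps2, lower without being called (2335 of 15590 genes). Rps2 was narrowly apart, with 682 CPM in arsenic 14 and 687 CPM in control 2. The cecum fit has its own scaling, on which these overlaps were not counted and may differ.

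Rps7, a small subunit protein, showed the largest difference. It stood at 298, 296, 307 and 317 CPM in the cecum controls and 400.3, 369, 410.4, 407 and 389 CPM on arsenic. The groups were fully apart and the difference was 0.42 ± 0.06 (adjusted p = 0.000189). Rpl36a, of the large subunit, measured 119, 113, 116 and 122 CPM in controls and 154, 134, 158, 161 and 142 CPM on arsenic, again with no overlap (0.39 ± 0.07, adjusted p = 0.000821). Rps27a, which is made as a fusion with ubiquitin, was at 243, 259, 256 and 271 CPM and rose to 324, 301, 356, 343 and 292 CPM (0.37 ± 0.07, adjusted p = 0.00185). Here too each arsenic library was above each control. Rpl26, a large subunit protein that can bind p53 mRNA, measured 312, 293, 340.4 and 334 CPM and 397, 369, 422, 417 and 404 CPM (0.37 ± 0.06, adjusted p = 0.00102), with no overlap. Rpl35, near the exit of the peptide tunnel and among the genes with low counts, was at 14.1, 11.4, 13.5 and 11.4 CPM in controls and 18.4, 13, 16.2, 16.6 and 16.4 CPM on arsenic. Its groups overlapped and its call (0.39 ± 0.12, adjusted p = 0.0226) was lost without control 2, control 5 or arsenic 11 (adjusted p up to 0.072).

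Several members known for roles outside the ribosome, or for their place in it, rose in the cecum. Rpl5 and Rpl11, the Mdm2-binding pair, rose by 0.31 ± 0.06 and 0.27 ± 0.06 (adjusted p = 0.00159 and 0.00457). Rpl22, which T cell development requires, rose by 0.34 ± 0.06 (adjusted p = 0.00139), and Rps6, the target of the S6 kinases below mTORC1, by 0.24 ± 0.06 (0.0116). Rpl3, which lies at the peptidyl transferase centre, rose by 0.26 ± 0.06 (0.00431) and Rpsa, which also serves as a laminin receptor, by 0.21 ± 0.06 (0.0159). The stalk was uneven. Rplp1 rose by 0.25 ± 0.06 (0.00515), Rplp0 differed by 0.06 ± 0.07 (0.568) and Rplp2 was the most negative member at -0.09 ± 0.08 (0.441). Rps27l, the p53-induced paralog of Rps27, had an adjusted p of 0.0387 (0.19 ± 0.06) and lost its call in 6 of the 9 fits without 1 library (without controls 1, 2 or 5, or arsenic 11, 14 or 15).

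The spread between libraries within a group that edgeR fitted across genes (a coefficient of variation) came to 0.130 for cecum, 0.243 for ileum and 0.245 for colon. With all 27 libraries in 1 fit, which changes the spread, the scaling and the genes tested together, 8 members were called higher and the median was 0.19. Measures of the whole library differed between the cecum diets too: 21832 to 22130 genes had a count in controls and 22351 to 23119 on arsenic, and TMM factors were 0.853 to 0.884 and 0.903 to 0.985, with no overlap in either. Their part in the rise was not tested. With upper-quartile scaling all genes split into 2448 higher and 1627 lower, against 1768 and 2165, and 60 members were called higher. T cell markers were also higher on arsenic in the cecum: 6 of 8 rose. Their summed level was 19.4 to 28.6 CPM in controls and 27.2 to 48.5 CPM on arsenic. Arsenic 15, with 27.2 CPM, had a summed member level of 27478 CPM, and arsenic 12, with 42.6 CPM, one of 25241 CPM. B cell markers were called in 0 of 8 and summed to 2.82 to 43.9 and 10.2 to 209.6 CPM. Of the smooth muscle and fibroblast markers 3 of 8 and 3 of 7 were higher. Of the enterocyte, large intestine and goblet markers 4 of 9, 4 of 5 and 4 of 5 were lower. Crypt and cycling cell markers summed to 301 to 379.8 CPM in controls and 316 to 397 CPM on arsenic, 1 of 8 being called, lower. None of the markers in these lists was at 0 in all cecum libraries of a group. In bulk tissue fewer cells of a type and less RNA per cell cannot be told apart, and the part of these cell types in the rise was not tested.

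In the ileum a small set rose and most members were not called: 7 of 76 were called higher and none lower, where 4.02% of all 16305 genes were called higher and 3.28% lower. The median member differed by 0.10 (log2), against -0.00221 for all genes. The 6 described here, Rplp2, Rpl28, Rps2, Rps9, Rpl8 and Rps13, differed by 0.46 to 0.81, and the 69 members not called lay between -0.10 and 0.43. Rplp2, the third protein of the acidic stalk, measured 189.6, 179, 149 and 186 CPM in the controls and 260.5, 329, 368, 347 and 285 CPM on arsenic. Each arsenic library was well above each control, and the difference was 0.81 ± 0.13 (1.76-fold, adjusted p = 0.0106). Its partners were not called: Rplp0 differed by 0.08 ± 0.13 (adjusted p = 0.766) and Rplp1 by 0.20 ± 0.12 (0.337).

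Rpl28, a large subunit protein particular to eukaryotes, was at 280.0, 256, 259.6 and 293 CPM in ileum controls and 371, 390.0, 476, 441 and 414 CPM on arsenic (0.58 ± 0.11, adjusted p = 0.0175). Rps2, of the small subunit near the mRNA entry, measured 658, 655, 646 and 746 CPM and 909, 874, 1098, 1199 and 927 CPM (0.53 ± 0.14, adjusted p = 0.0422). Its neighbour on the subunit, Rps9, stood at 509.6, 504, 521 and 532 CPM and 676, 757, 783, 844 and 687 CPM (0.50 ± 0.11, adjusted p = 0.0294). In all 3 genes the groups were fully apart. Rpl8, which lies near the peptidyl transferase centre, was at 554, 512, 514 and 565 CPM in controls and 698, 693, 842, 889 and 708 CPM on arsenic (0.48 ± 0.13, adjusted p = 0.0447). Rps13 measured 170.2, 169, 160.3 and 189 CPM and 212, 237, 259.8, 284 and 220.3 CPM (0.46 ± 0.12, adjusted p = 0.0414). Rpl8 and Rps13 did not overlap between the diets either. Ileum arsenic 15 had a TMM factor of 0.824 and 21825 genes with a count. The ileum controls had factors of 1.01 to 1.06 and 22880 to 23626 genes. The part of this scaling in how far the groups lay apart was not tested. Counting all members, 12 did not overlap and were higher on arsenic (8.52% of all genes). The ileum fit has its own scaling, on which this count was not taken and may differ.

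The remaining members of the ileum included the genes named for their roles in the cecum. Rpl5, Rpl11, Rpl3, Rps6 and Rpsa differed by 0.07, 0.06, 0.06, 0.18 and 0.01, Rpl22 by 0.19, Rpl26 by 0.00 and Rps27l by -0.09, none of them called. The most negative was Rpl10, which joins the large subunit last, at -0.10 ± 0.11 (adjusted p = 0.624). Rpl14, named after its values were seen, lay just outside the call at 0.43 ± 0.13 (adjusted p = 0.0626), with 273, 244, 229 and 284 CPM in controls and 318, 329, 386, 416 and 332 CPM on arsenic. A pseudogene row with its name held 36834 counts over the 27 libraries, so the split between the 2 is uncertain.

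**Figure D2:**
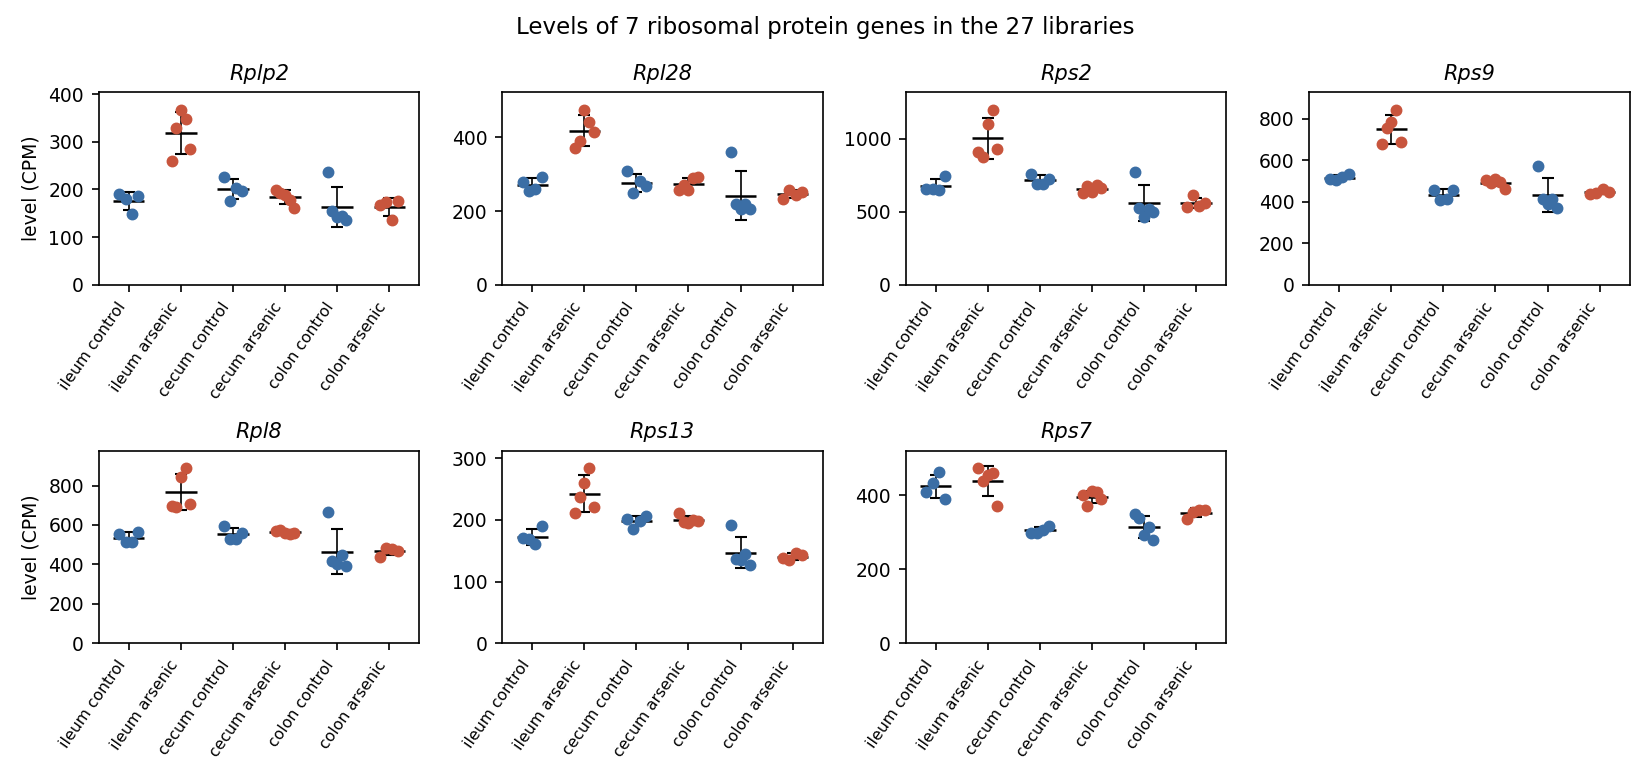
Level in CPM (vertical axes, from 0) of 6 members called higher in the ileum and of Rps7, by region and diet; each point is 1 of 27 libraries (blue control, red arsenic), lines are group means and bars are 1 SD. In the first 6 panels the ileum arsenic libraries are above the ileum controls, and colon control 1 is the highest colon control; in Rps7 it is the cecum groups that are apart.

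The ileum calls depended on single libraries. The number of members called was 0 without control 2, 1 without control 1 or 3, 3 without control 5 or arsenic 12, and 2 without arsenic 13 or 14. It was 4 without both arsenic 14 and 15, a fit added after seeing the data. Rplp2 lost its call only without control 2 (adjusted p = 0.0522) and Rpl28 without controls 1, 2 or 3 (up to 0.0828). Rps2, Rps9 and Rpl8 each lost theirs in 7 of the 9 fits, in each fit but those without arsenic 11 or 15 (adjusted p up to 0.142, 0.109 and 0.152). Rps13 lost its call in the same 7 fits (up to 0.136). Paneth cell markers summed to 7674 to 13557 CPM in the ileum controls and 3156 to 9402 CPM on arsenic with 0 of 4 called, and T and B cell markers had 0 of 8 called in each list. Their part in the rise was not tested.

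Among the 6 ileum genes described, 4 (Rplp2, Rpl28, Rps9 and Rps13) lie on chromosome 7 in GENCODE M21. That chromosome holds 14 of the 76 members tested. Of the 656 genes called higher in the ileum 9.45% lie on that chromosome, which holds 7.72% of the genes tested. In the cecum 7 of the 49 members called were on it. An intronic or nested small nucleolar RNA gene was annotated in 4 of all 7 called and in 25 of the other 69, and a pseudogene row existed for 4 of the 7 and for 55 of the 69. Rplp2, Rps9 and Rpl8 had no pseudogene row. Median exon length was 1840 bases for the 7 and 1770 for the rest.

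In the colon no member was called (0 of 76, 0 at an unadjusted p under 0.05), where 0.364% of all 16492 genes were called higher and 0.285% lower. The median difference was -0.01, with a range of -0.33 to 0.17. DESeq2 also called 0, and limma voom with sample weights called 0 with 4 at an unadjusted p under 0.05. The lowest was Rps21, at 128, 78.8, 78.7, 82.6 and 66.0 CPM in controls and 69.4, 72.5, 70.9 and 62.8 CPM on arsenic (-0.33 ± 0.17, adjusted p = 0.423). The highest was Rps7, at 349.8, 339, 292, 313 and 278 CPM and 334, 355, 359 and 359 CPM (0.17 ± 0.09, adjusted p = 0.423). Both overlapped between the diets. Without colon control 1, which was the highest control in both genes, the median of the members was 0.10, 66 of 76 were positive and still none was called, with 14 at an unadjusted p under 0.05.

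**Figure D3:**
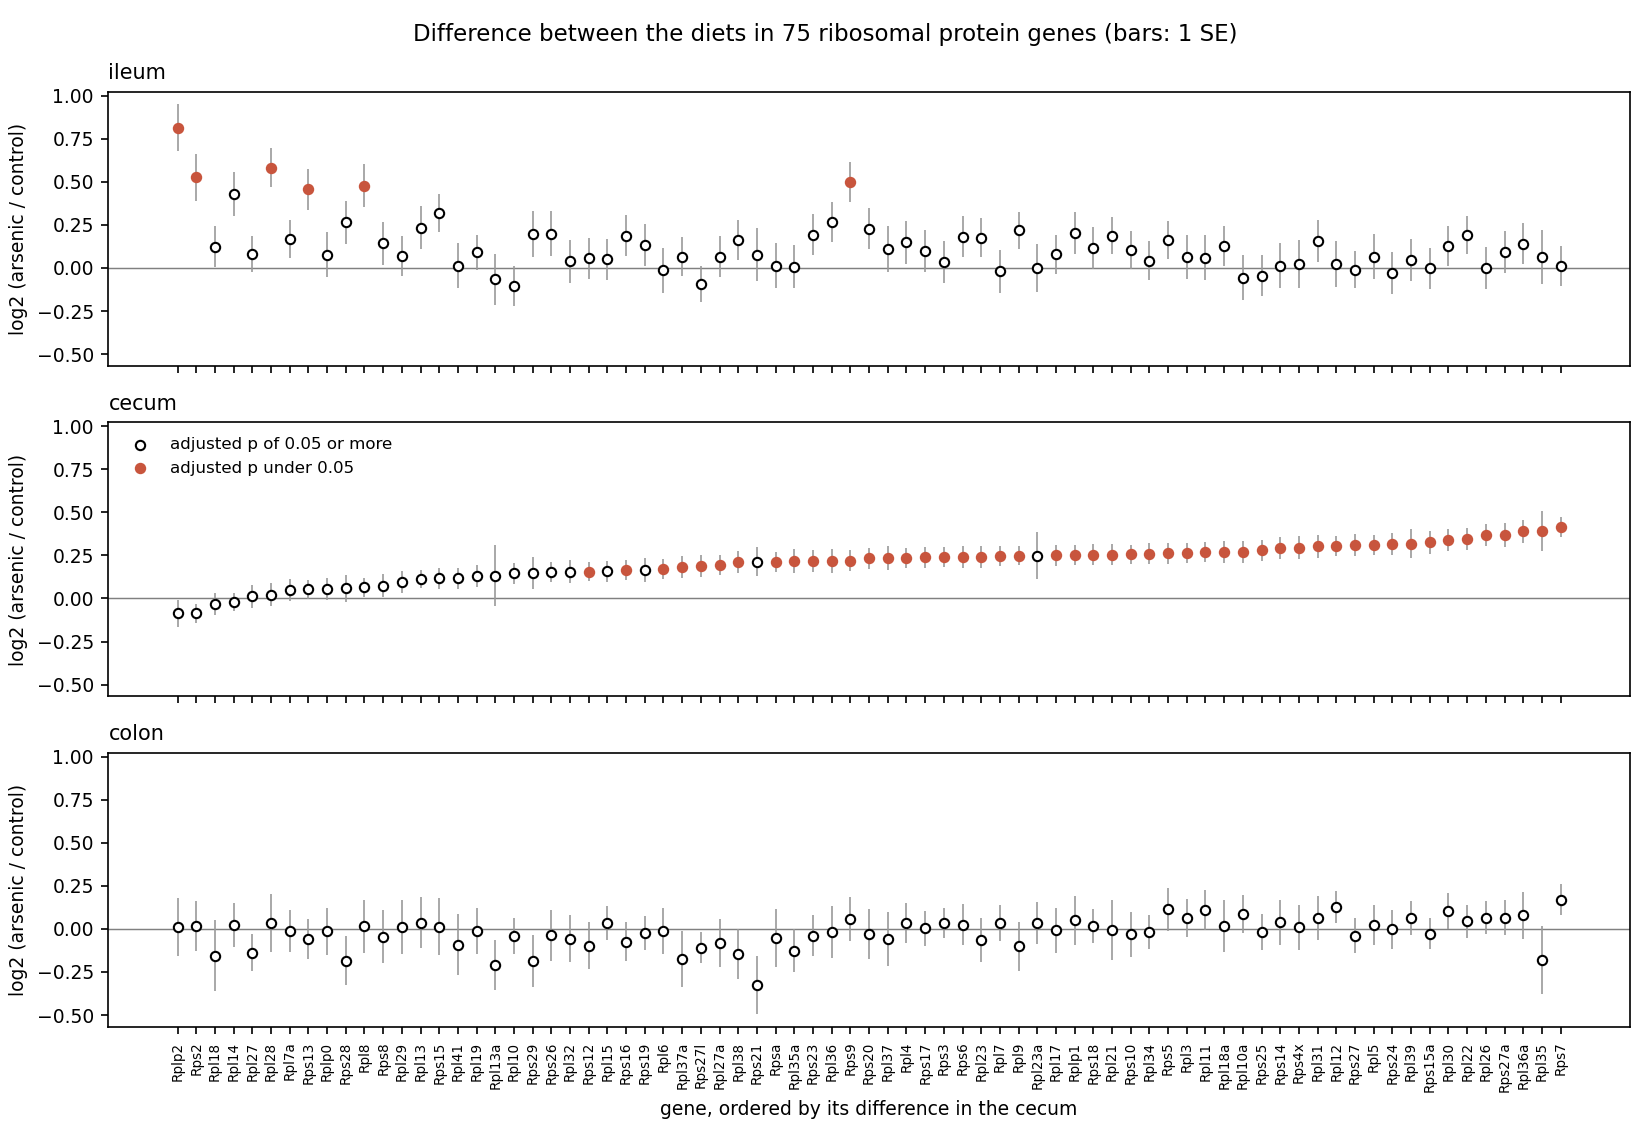
Log2 difference between arsenic and control (vertical axes) for 75 of the members tested, in the same gene order in all 3 panels, lowest to highest in the cecum; bars are 1 SE and filled points passed the adjusted p. In the cecum the filled points run along the right side up to 0.42 (Rps7), in the ileum they are 6 separate genes up to 0.81 (Rplp2), 5 of which sit among the open points of the cecum, and the colon has none.

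The ileum and cecum sets had 1 member in common, Rps9, which is 14.3% of the 7 called in the ileum and 2.04% of the 49 called in the cecum. Rps9 stood at 459, 410.2, 414 and 455 CPM in cecum controls and 506, 490.4, 508, 495 and 463 CPM on arsenic (0.22 ± 0.06, adjusted p = 0.0158), with no overlap. This call was lost without cecum control 2 (adjusted p = 0.0502). In the cecum the 7 ileum genes had a median of 0.05 and the other 69 a median of 0.24. In the colon these medians were 0.02 and -0.01. Whether the arsenic difference itself differed between the 3 regions was tested with the interaction term of an edgeR fit to all 27 libraries, which called 6 of 76 members, against 7.62% of the 17763 genes tested. That count is near the background. Those described here were Rplp2 (adjusted p = 0.00441), Rps2 (0.0176), Rps13 (0.0196), Rpl28 (0.0325) and, beyond the naming rule, Rpl14 (0.0436). For Rplp2 the arsenic difference was 0.98 lower in the cecum and 0.85 lower in the colon than in the ileum (log2). For Rps2 it was 0.69 and 0.56 lower, for Rpl28 0.64 and 0.59 and for Rps13 0.48 and 0.56. Rps7, the leading gene of the cecum, did not pass (adjusted p = 0.153). With upper-quartile scaling 2 members were called, and with no filter on low counts 2. Of the genes described, Rplp2 kept its call under both and Rps2 with no filter, while Rps13, Rpl28 and Rpl14 were called under neither. The second call with upper-quartile scaling was Rps7 itself. With the library number as a block 3 members were called, Rplp2, Rps2 and Rpl28, so Rps13 and Rpl14 were not. Rplp2 kept its call in each of the 27 fits without 1 library. Without ileum control 2 it was the one member called, and without ileum control 3 the count was 3. Without colon control 1 the count was 8, with 1856 of 17712 genes called. Rps2 lost its call without ileum control 2 and Rps13 without ileum control 2 or 3. Rpl28 lost its call in 7 of the 27 fits (without ileum controls 1, 2 or 3, ileum arsenic 13 or 14, cecum control 1 or cecum arsenic 13). Rpl14 lost its call in 19 of them (up to 0.167), in each but those without ileum control 5, ileum arsenic 11, 12 or 15, or colon controls 1, 2, 3 or 5.

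On control feed the members were higher in the ileum than in the large intestine. From ileum to cecum 45 of 76 were called lower and 1 higher, with a median of -0.40 against -0.03 for all genes, of which 26.5% were called lower and 28.4% higher. From ileum to colon 56 were called lower and none higher, all 76 differences were negative and the median was -0.44, where 24.5% of all genes were called lower and 27.7% higher. These comparisons share the ileum controls. Both contain 43 of the lower members, 95.6% of those lower in the cecum and 76.8% of those lower in the colon. Without colon control 1, 73 members were called lower in the colon than in the ileum. The cecum and ileum were compared in the same fit, where 63 members were then called lower in the cecum and 1 higher.

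Rpsa fell farthest towards the colon. It measured 1305, 1179, 1153 and 1128 CPM in ileum controls, 756, 768, 732 and 807 CPM in cecum controls and 968, 561, 552, 689 and 579 CPM in colon controls. The ileum libraries were all above the rest, and the difference was -0.65 ± 0.15 for cecum (adjusted p = 0.00268) and -0.83 ± 0.14 for colon (0.000262). Rps12, of the small subunit, stood at 449.7, 412, 381 and 377, then 241, 243, 257 and 264, then 309.9, 215, 215, 228 and 187 CPM in the same order (-0.70 ± 0.13 and -0.81 ± 0.12, adjusted p = 0.000405 and 7.46e-05). Rpl13a, a member of the interferon-responsive GAIT complex and also low in counts, was at 5.65, 6.86, 5.74 and 6.01 CPM in the ileum, 3.39, 3.73, 2.96 and 4.37 CPM in the cecum and 4.18, 3.46, 3.73, 3.83 and 3.09 CPM in the colon (-0.75 ± 0.16 and -0.73 ± 0.15). Rps27l and Rpl10a were lower in the colon than in the ileum, with differences of -0.71 ± 0.09 and -0.67 ± 0.10 (adjusted p = 2.18e-05 and 5.12e-05). Rpl35 and Rpl23a were lower in the cecum than in the ileum, with differences of -0.81 ± 0.20 and -0.68 ± 0.16 (0.00343 and 0.00283). The smallest step to the colon was that of Rpl9 (-0.02 ± 0.12, 0.904).

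Among the members named for their roles, Rplp1 stood at 723 ± 61.2 CPM in the ileum (SD, n = 4), 490.1 ± 17.3 CPM in the cecum (n = 4) and 529 ± 114 CPM in the colon (n = 5). It was lower than the ileum in both (adjusted p = 0.00269 and 0.00837), and the cecum and colon did not differ beyond their spread (0.485). Rplp0 was 1449 ± 51.6 CPM, 1155 ± 41.8 CPM and 1039 ± 191 CPM, called lower in the cecum (0.0298, lost without any one of the cecum controls or of ileum controls 1, 3 and 5) and in the colon (0.00283). Differences to the ileum in cecum and colon were -0.40 and -0.54 for Rps6, -0.41 and -0.50 for Rpl3, -0.45 and -0.42 for Rpl5, and -0.34 and -0.48 for Rpl11. For Rpl26 they were -0.39 and -0.34 and for Rpl22 -0.44 and -0.29, and these 6 genes passed in both comparisons. Rpl11 lost its call in the cecum without cecum control 2 (adjusted p = 0.0511). Rplp2, unlike its partners, was at 176 ± 18.3 CPM, 201 ± 20.4 CPM and 163 ± 42.4 CPM and passed in neither (0.18 and -0.12, adjusted p = 0.351 and 0.542). The 7 genes that rose on arsenic in the ileum lay between -0.26 and 0.19 from ileum to cecum, 0 of them called, while the other 69 had a median of -0.41; the same ileum controls enter both the diet and the region comparison.

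Between colon and cecum few members differed: 7 of 76 were called lower in the colon and none higher, against 25.3% and 21.9% of all 16882 genes, and the median was -0.06. Rpl7a was the one member higher in the cecum than in the ileum and the lowest from cecum to colon. It measured 388, 388, 394 and 404 CPM in the ileum controls, 499, 479, 512 and 549 CPM in the cecum controls and 483, 359, 314, 374 and 358 CPM in the colon controls. The cecum was above every ileum control (0.36 ± 0.11, adjusted p = 0.0132, not called with upper-quartile scaling), and colon control 1 reached into the cecum range (-0.43 ± 0.11, adjusted p = 0.00473). The other 6 lower in the colon were Rps13 (-0.42 ± 0.11), Rpl27 (-0.41 ± 0.10), Rps26 (-0.40 ± 0.13), Rpl29 (-0.37 ± 0.13), Rps27l (-0.27 ± 0.09) and, named after its values were seen, Rps2 (-0.35 ± 0.13). Highest, and not called, was Rpl35 (0.39 ± 0.19, adjusted p = 0.11), for which colon control 1 stood at 26.2 CPM and the other colon controls at 13 to 14.6 CPM.

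This count was the least stable of the regional ones. It was 31 without colon control 1, and 4 or 3 without any one of the other colon controls or of cecum controls 4 and 5. The call of Rps26 was lost without colon control 2, 3 or 5, and that of Rps27l without colon control 3, 4 or 5 or cecum control 4 or 5. Rpl29 and Rps2 lost theirs without any one of the cecum controls or of colon controls 2 to 5, and Rpl29 also without ileum control 2. With voom and sample weights 32 were called lower. With upper-quartile scaling the split of all genes between colon and cecum moved from 3704 higher and 4266 lower to 4458 and 2719, and that between cecum and ileum from 4800 and 4466 to 3663 and 5859. The median of all genes shifted with it, from -0.05 to 0.09 and from -0.03 to -0.19, and the members' medians became 0.07 and -0.57. Without colon control 1 the members' median between colon and cecum was -0.15 and that of all genes -0.04. T cell markers were lower in the cecum and colon than in the ileum (8 of 8 and 7 of 8 called), summing to 86.2 to 142, 19.4 to 28.6 and 16.4 to 39.0 CPM. Crypt and cycling cell markers summed to 496 to 805, 301 to 379.8 and 225 to 266 CPM, with 3 and 8 of 9 called lower, and their part in the regional differences was not tested. Paneth cell markers, which define the small intestine, summed to 7674 to 13557 CPM in the ileum and 7.29 to 12.2 CPM in the cecum, where 1 of 4 was at 0 in all controls. Large intestine markers were higher in the cecum and colon than in the ileum (5 of 5 called in each). Smooth muscle markers were lower from ileum to cecum (5 of 8 called) and higher from cecum to colon (8 of 8). Fibroblast markers did the same (4 of 7 and 7 of 7). The part of these cell types was not tested either.

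**Figure D4:**
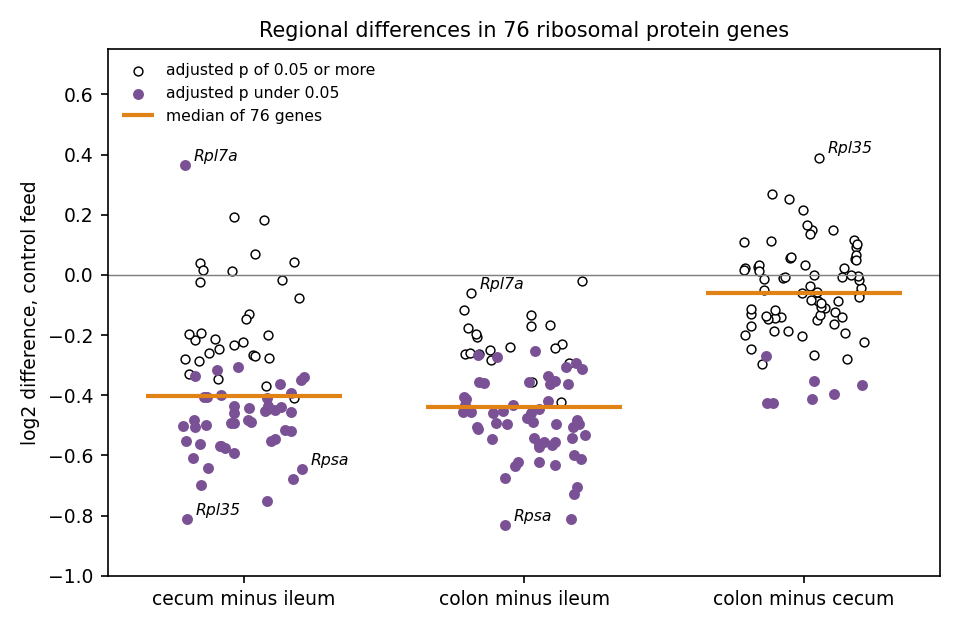
Log2 difference between regions on control feed (vertical axis) for the 76 members tested, with 1 point per gene spread sideways at random, filled where the adjusted p passed, and the median as an orange line. The medians are -0.40 for cecum minus ileum, -0.44 for colon minus ileum and -0.06 for colon minus cecum, and Rpl7a is the one filled point above 0.

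Taken relative to the median member of each library, 3 genes moved most over the 6 groups: Rpl7a, Rplp2 and Rps13, with SDs of the group means of 0.29, 0.25 and 0.21 (log2). Rpl7a lay 0.09 above the median member in ileum controls and 0.86 above it in cecum controls. Rplp2 lay 1.07 below it in ileum controls and 0.37 below on arsenic, and Rps13 1.10 and 0.76 below. For Rpl3 the SD was 0.02. Colon control 1 was the highest of the 5 colon controls in 73 of the 76 members, the 7 ileum genes among them. Rplp2 was 238 CPM there against 135 to 155 CPM in the others, Rpl28 361 against 205 to 221, Rps2 773 against 464 to 527, Rps9 572 against 370.4 to 413, Rpl8 666 against 392 to 448 and Rps13 191 against 127 to 145. Among the colon controls the same library had the highest T cell (39.0 CPM), large intestine (14115 CPM) and small intestine enterocyte (442 CPM) marker sums. It had the lowest fibroblast (687 CPM), smooth muscle (5644 CPM), enterocyte and colonocyte (15491.5 CPM) and goblet (15819 CPM) sums. Its crypt and cycling cell (225 CPM), plasma cell (1033 CPM), macrophage (90.8 CPM) and B cell (4.50 CPM) sums were the lowest as well. The part of these cells was not tested.

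Ribosomal proteins that the symbol rule leaves out were mixed in the cecum and not called in the ileum. In the cecum Rps3a1 rose by 0.29 ± 0.07 and Rack1, a scaffold on the small subunit, by 0.20 ± 0.06 (adjusted p = 0.00726 and 0.0247), and Rpl7l1 fell by 0.27 ± 0.07 on the log2 scale (0.0109). Fau, made as a fusion with a ubiquitin-like protein, Rpl22l1 and Rpl36al were not called, with differences of 0.08, 0.29 and -0.05. None of the 7 was called in the ileum or, of 6 tested, in the colon. Of the ribosomal protein pseudogenes 6 of 55 tested rose in the cecum and 2 of 59 in the ileum, none fell, and the medians were 0.18 and 0.17. Those counts are near the shares of all genes called higher, 11.3% in the cecum and 4.02% in the ileum.

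Other TOP mRNAs, which code for translation factors and their partners, rose in 6 of 20 cases in the cecum, where 11.3% of all genes were called higher. Rack1, given above, is in this list as well and is 1 of the 6. In the ileum 2 of 20 rose, against 4.02% of all genes. None of these mRNAs was lower in either region, and their medians were 0.11 and 0.19. In the cecum they were led by the RNA-binding protein Hnrnpa1 (0.46 ± 0.06, adjusted p = 0.000191), the nucleolar chaperone Npm1 (0.45 ± 0.07, 0.000527) and the initiation factor subunit Eif3e (0.37 ± 0.06, 0.000615). In the ileum they were the initiation factor subunit Eif3f (0.65 ± 0.14, 0.0217) and the elongation factor Eef2 (0.72 ± 0.15, 0.022), for which the interaction between regions was called as well (0.0062). In the colon 0 of 20 were called. Npm1, Hnrnpa1 and Naca were lower in the cecum than in the ileum on control feed (-0.62, -0.56 and -0.47), as 6 of 20 of the list were, with 1 higher. The count of 6 is near the 26.5% of all genes called lower at this step, where 28.4% were called higher.

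Ribosome biogenesis genes, whose products process rRNA and assemble the subunits, were mixed in the cecum: of 39, 9 were lower and 3 higher, with a median of -0.04. Over all genes 13.9% were called lower there and 11.3% higher. Nucleolin (Ncl) rose by 0.41 ± 0.07 (adjusted p = 0.00112), whereas the rRNA methyltransferase Nop2 and the processome component Utp20 changed by -0.53 ± 0.09 and -0.53 ± 0.10 (0.00112 and 0.00299). None of the 39 was called in the ileum or the colon. Between regions 24 of 39 were lower in the colon than in the cecum and none higher. At this step 7 of the 76 members and 25.3% of all genes were called lower. Without colon control 1, 31 members and 4839 of 16768 genes were called lower, and the 39 were not counted in that fit.

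Genes of mTORC1 and of TOP control were mixed. In the cecum 4 of 25 rose and 5 fell, against 11.3% of all genes called higher and 13.9% lower. Rptor, the mTORC1 scaffold, rose by 0.60 ± 0.07 (4.42e-05) and its inhibitor Tsc1 by 0.39 ± 0.07 (0.00117), and Larp1 changed by -0.34 ± 0.07 (0.00225). In the ileum 3 rose and none fell, against 4.02% and 3.28% of all genes. The 3 were Akt1s1 (0.44 ± 0.09, 0.0207), Eif4ebp2 (0.47 ± 0.13, 0.0472) and Larp1 (0.47 ± 0.13, 0.0479). The arsenic difference of Larp1 thus had opposite signs in ileum and cecum, and its interaction was called (0.00273). In the p53 link, Mdm2 was lower in the cecum (-0.47 ± 0.12, 0.0182), where Cdkn1a, a p53 target, was at 0.01 ± 0.09 (0.925), and Trp53 was higher in the ileum (0.46 ± 0.12, 0.0432).

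Mitochondrial ribosomal proteins, which serve the separate ribosome of that organelle, were mixed in the cecum and higher where called in the ileum. In the cecum 5 of 77 rose and 8 fell, against 11.3% and 13.9% of all genes, with a median of -0.01. Among those lower was Mrpl15 (-0.42 ± 0.07, adjusted p = 0.000716). In the ileum 11 of 77 rose, against 4.02% of all genes, and none fell. Those higher were led by Mrpl2 (0.75 ± 0.11, 0.00736), Mrps34 (0.89 ± 0.13, 0.00776) and Mrps18a (0.60 ± 0.09, 0.00911). From cecum to colon 64 of 77 were lower, against 25.3% of all genes. Of the nuclear genes of oxidative phosphorylation 4 of 78 were called higher in the ileum, near the 4.02% of all genes, and in the cecum 1 of 77 was called higher and 2 lower. None of either list was called in the colon on arsenic.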

How the data were processed

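Poly-A RNA from 2 ug of total RNA was sequenced as 150-base paired reads, per the labels' protocols. The authors deposited whole-number counts of reads per gene, made with HISAT2 2.1.0, SAMtools and HTSeq 0.6.0, with DESeq2 1.6.3 also named, per the submitters' processing notes. The choice of strand setting, genome build and annotation is not given in the sources used here. Overlapping and antisense genes, and genes with near-identical copies, therefore cannot be told apart with certainty.

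Gene IDs were matched to GENCODE M21 symbols (52403 of 52550). Each diet comparison was fitted within its region, the regions were compared over the 13 control libraries and the interaction over all 27, with TMM scaling, filterByExpr (count minimum 10) and edgeR's quasi-likelihood test (edgeR 4.0.16, R 4.3.3). P-values were Benjamini-Hochberg adjusted over all genes tested, with a threshold of 0.05. The SE is the log2 difference divided by the square root of F. Alternatives used DESeq2 1.42.0, limma 3.58.1, other scalings and filters, and leaving out each library. The scripts were tested on simulated data.

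Genes were named by a rule: in each comparison the 5 members with the largest called difference in each direction, the most extreme member where none was called, the 5 with the smallest interaction p, the 3 highest and 3 lowest per length, the 3 that moved most against the median member, and a fixed set chosen for their roles. Of other lists at most the 3 genes with the smallest p were named. Some genes that the rule names are not reported here. Others are said to be named after their values were seen. The members and lists were chosen with earlier results of these data known.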

Additional observations from a re-analysis of the deposited data

Results flagged for a closer look

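Colon control 1 was far above the other 4 colon controls in the share of counts taken by the ribosomal protein genes (3.13%) and in Rplp2 (238 CPM), Rpl28 (361 CPM), Rps2 (773 CPM), Rps9 (572 CPM), Rpl8 (666 CPM), Rps13 (191 CPM), Rps15 (487 CPM) and Rpl35 (26.2 CPM). Single libraries also stood apart high in Rpl3 (cecum control 5, 579.8 CPM), Rps13 (cecum arsenic 11, 211 CPM) and Rps2 (ileum control 5, 746 CPM), and low in Rps27l (ileum arsenic 15, 88.1 CPM) and Rps7 (colon arsenic 11, 334 CPM). These are 14 of 144 groups of libraries checked, where chance gives about 1 in 20, and the genes checked share their libraries. The interaction test of edgeR called a difference between the regions in the arsenic effect for Rplp2 (adjusted p = 0.00441), Rps2 (0.0176), Rps13 (0.0196), Rpl28 (0.0325) and Rpl14 (0.0436). They are among 6 of 76 members called, near the 7.62% of all genes. Rps13, Rpl28 and Rpl14 were not called with no filter or with upper-quartile scaling, and Rpl14 lost its call in 19 of 27 fits without 1 library.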

How the results depend on the processing

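No named gene with a call changed its direction under the alternatives run, but the medians of the arsenic comparison in the colon and of colon against cecum, both near 0, changed sign in some. For the arsenic rise in the cecum, 8 members were called in the fit to all 27 libraries, and leaving out 1 library gave 36 to 51 with medians of 0.20 to 0.25. For the ileum rise 4 were called with no filter and 4 without arsenic 14 and 15, and leaving out 1 library gave 0 to 9 with medians of 0.06 to 0.18. In the colon the count stayed at 0 and the median was -0.06 to 0.10. The interaction count was 2 with no filter, 2 with upper-quartile scaling and 3 with the replicate block, and 1 to 8 without 1 library. From ileum to cecum 2 were called higher with voom and 0 with upper-quartile scaling, which gave a median of -0.57. Leaving out 1 library gave 38 to 63 lower, 1 higher in each fit and medians of -0.43 to -0.36. From cecum to colon 1 was higher with DESeq2, 1 with RLE scaling, 1 in the fit to all 27 and 5 with upper-quartile scaling, whose median was 0.071. The lower count there was 4 with RLE, 32 with voom and 3 with upper-quartile scaling. Leaving out 1 library gave 0 to 4 higher, 3 to 31 lower and medians of -0.15 to -0.00083. From ileum to colon it gave 50 to 73 lower and medians of -0.56 to -0.41. The cause of these shifts was not tested.

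Same-numbered libraries of different regions correlated in their deviations by -0.112 to 0.292 (median 0.118, 14 of 24 pairs over 0.1), and differently numbered ones by -0.298 to 0.226 (median -0.03, 12 of 97 over 0.1). Of 48 comparisons 29 were best with the own number, which is a hint from the data and not from the design. The labels do not pair the libraries, so the fits reported have no block. Whether equal numbers mean 1 mouse cannot be told from these correlations. With the replicate block the interaction calls were Rplp2, Rps2 and Rpl28, 47 members were lower in the cecum and 58 in the colon than in the ileum, and 7 in the colon than in the cecum. The diets share no replicate numbers. Over all genes the calls were 1190 in the ileum (2889 with all 27, 2141 with DESeq2, 2129 with voom, 673 without arsenic 14 and 15, 121 to 1583 without 1 library), 3933 in the cecum (2021 with all 27), 107 in the colon (493, 665 and 609 with all 27, DESeq2 and voom, 6 to 351 without 1 library) and 1353 for the interaction (827 with no filter, 2147 with voom, 551 to 1866 without 1 library). Rpl24, Rpl10l, Rpl3l and Rpl39l held too few counts to test.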
